A study of Mus musculus with 4 samples.

Results

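The genes described here are *Cxcl1*, *Cxcl2*, *Cxcl3*, *Cxcl5* and *Csf3*, taken by name as 5 of the 33696 genes counted in each cell. They code for 4 chemokines that attract neutrophils and for granulocyte colony-stimulating factor (G-CSF), and their level, the share of cells with a transcript and their detection in the same cell were read in kept cells, which had between 500 and 6000 genes detected and no more than 10% of counts from mitochondria. The cells came from B16-F1-OVA tumors, a mouse melanoma that carries ovalbumin, grown for 14 days after the intraperitoneal injection of 400000 tumor cells. The hosts were C57Bl/6 mice with both a Cxcl13-cre-tdTomato and an R26R-eGFPflox allele, in which the *Cxcl13* promoter drives tdTomato and cre, so that tdTomato marks cells with an active promoter and eGFP marks cells that had expressed cre or descend from such cells. CD45neg CD31neg cells with high podoplanin, a surface marker of cancer-associated fibroblasts, were sorted into tdTomato- eGFP-, tdTomato- eGFP+, tdTomato+ eGFP- and tdTomato+ eGFP+ populations. All 4 populations, the one without reporter signal included, came from tumor-bearing mice with both alleles, and mice of both sexes were used in the study.

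Each population was sequenced as 1 library, so no difference could be tested across samples, and neither the number of animals behind a library nor their age was given in the sources used here. Libraries held 10071954 to 90259852 unique molecular identifiers (UMIs, each marking 1 captured transcript), and 22691 of 24489 barcodes were kept. Pairs of libraries shared 2 to 21 barcodes. A first clustering gave 21472 collagen-expressing cells, 94.6% of those kept, 622 melanoma-like cells with *Pax3* in 69.6%, and 597 immune-like cells with *Ptprc* in 61.1%. Although the sort had selected against CD45, the immune-like cells were kept as a class, and they also held 14612 CPM (UMIs scaled to one common total for each set of cells) of the 6 collagen marker genes against 21178 CPM in collagen-expressing cells. A second clustering split the collagen-expressing cells into 7 groups, from variable genes that did not include the 5 genes described here. Levels are UMIs of a gene summed over cells, in CPM, with exact Poisson 95% intervals, and shares of cells have exact binomial (Clopper-Pearson) 95% intervals, all of which cover counting error only.

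CXCL1, CXCL2, CXCL3 and CXCL5 belong to the CXC chemokines with a Glu-Leu-Arg motif, which bind the receptor CXCR2 on neutrophils and draw these cells into inflamed tissue. G-CSF acts on the receptor encoded by *Csf3r* and drives the production and release of neutrophils in the bone marrow. Fibroblasts switch on all of these genes when interleukin-1, TNF or interleukin-17 activate NF-kB and C/EBP factors, and their short-lived mRNAs are removed by decay factors such as those encoded by *Zfp36* and *Zc3h12a*.

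On mouse chromosome 5 the RefSeq annotation places *Cxcl5*, *Ppbp*, *Pf4*, *Cxcl3*, *Cxcl15*, *Cxcl1* and *Cxcl2* next to one another in this order, while *Csf3* lies on chromosome 11. Promoter windows, from 250 bases before to 50 bases after the start of the gene, were found for 3 of the 5 genes, and these are printed because they share a kappaB-type element, the kind of sequence that NF-kB binds. It was taken as the longest run of letters that all 3 windows share before the start. All are on the plus strand of GRCm38.p6, from RefSeq, written 5′ to 3′, and the capitals mark this run of 11 letters, GGGAATTTCCC. The windows are chr5:90785851-90786150 for *Cxcl3*, chr5:90890995-90891294 for *Cxcl1* and chr5:90903649-90903948 for *Cxcl2*.
Cxcl3: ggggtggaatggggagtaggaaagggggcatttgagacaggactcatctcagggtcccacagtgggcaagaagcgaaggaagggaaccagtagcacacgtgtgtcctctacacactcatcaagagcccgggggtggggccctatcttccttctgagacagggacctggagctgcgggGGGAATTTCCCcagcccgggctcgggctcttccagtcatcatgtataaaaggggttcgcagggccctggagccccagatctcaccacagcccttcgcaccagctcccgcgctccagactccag
Cxcl1: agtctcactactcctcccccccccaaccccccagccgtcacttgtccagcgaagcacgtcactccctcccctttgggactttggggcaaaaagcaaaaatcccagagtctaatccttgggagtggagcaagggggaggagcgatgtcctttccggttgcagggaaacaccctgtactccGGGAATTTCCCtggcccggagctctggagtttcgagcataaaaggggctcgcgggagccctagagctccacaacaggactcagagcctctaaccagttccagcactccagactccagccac
Cxcl2: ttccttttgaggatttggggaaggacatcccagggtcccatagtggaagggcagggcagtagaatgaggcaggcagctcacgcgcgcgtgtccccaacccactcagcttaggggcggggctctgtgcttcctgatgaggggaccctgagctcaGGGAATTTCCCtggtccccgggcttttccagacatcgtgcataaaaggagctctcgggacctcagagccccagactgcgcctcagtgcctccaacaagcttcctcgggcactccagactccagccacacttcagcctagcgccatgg
The capital letters began 73 bases before the start of *Cxcl3*, 71 bases before that of *Cxcl1* and 97 bases before that of *Cxcl2*. Only the part before the start was searched, and the next longest run that all 3 windows share there, the TATA-type letters ATAAAAGG, began 29, 34 and 57 bases before the start in the same order, after the capital letters. Over windows of the same length, GGGAATTTCCC on either strand was held by 14 of 27025 genes (0.0518%), ATAAAAGG on the sense strand by 370 (1.37%), and both by 3 genes, which were *Cxcl1*, *Cxcl2* and *Cxcl3*. The letters were taken from the same 3 windows, so their presence in all of them is fixed by that choice, and a match describes the window and is no evidence of binding. By global alignment the windows of *Cxcl3* and *Cxcl1* were 52.8% identical, those of *Cxcl3* and *Cxcl2* 57.6%, and those of *Cxcl1* and *Cxcl2* 53.2%. Transcripts of *Cxcl2* and *Cxcl3* share a run of 157 bases, and no other pair of the 5 genes shares more than 23 bases. In the longest transcripts with the run of 157, of 2066 and 3498 bases, it ends 1849 and 3285 bases before the 3′ ends, near which this 3′ chemistry reads. Its distance from the 3′ end of any shorter transcript was not read. Values of *Cxcl2* and *Cxcl3* are therefore given with the limit that reads inside that run could not be told apart.

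All 5 genes were detected in collagen-expressing cells of all 4 libraries. *Cxcl1* was found in 80.1% of these cells, at 1502 CPM in the tdTomato- eGFP- library, 1409 CPM in tdTomato- eGFP+, 1425 CPM in tdTomato+ eGFP- and 1328 CPM in tdTomato+ eGFP+. Its level moved little between libraries. *Cxcl2* was found in 23.7% of cells, at 252, 185, 227 and 177 CPM in the same order. *Cxcl3* was found in 6.18% of cells, at 23.4, 26.5, 16.4 and 11.5 CPM, and was lower in both tdTomato+ libraries than in both tdTomato- libraries. *Cxcl5* and *Csf3* had the opposite order. *Cxcl5*, found in 45.7% of cells, reached 395 and 507 CPM in the tdTomato- libraries and 746 and 807 CPM in the tdTomato+ libraries, and *Csf3*, found in 17.7% of cells, reached 46.3 and 60.5 CPM in the former and 81.7 and 73.1 CPM in the latter.

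To compare populations at one depth, cells were thinned to 1000 UMIs each, which left out 590 shallower collagen-expressing cells. The share of thinned cells with *Cxcl5* was 16.9% (16.2 to 17.7) in tdTomato- eGFP- and 33.6% (32.2 to 34.9) in tdTomato+ eGFP- cells, and the share with *Csf3* was 3.51% (3.16 to 3.90) and 6.95% (6.23 to 7.72). For *Cxcl1* the shares were 53.4% and 57.0%. In melanoma-like cells, the class with the lowest levels, the thinned shares were 13.01% for *Cxcl1*, 3.41% for *Cxcl2*, 0.976% for *Cxcl3*, 3.41% for *Cxcl5* and 0.488% for *Csf3*, and before thinning these cells had a median of 17636.5 UMIs against 7254 in collagen-expressing cells. Over collagen-expressing cells of all libraries the thinned shares were 54.7%, 10.6%, 1.64%, 22.5% and 4.88%, above the share in melanoma-like cells for each gene.

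The first comparison asked whether cells with an active *Cxcl13* promoter, which the study set out to characterize, differed in these genes from cells without reporter signal. *Cxcl13* itself was higher in tdTomato+ eGFP- than in tdTomato- eGFP- cells by 3.27 on the log2 scale, as the sort intended. *Cxcl5* was higher by 0.92 (0.89 to 0.94) and *Csf3* by 0.82 (0.75 to 0.89), while *Cxcl1* differed by -0.08, *Cxcl2* by -0.15 and *Cxcl3* by -0.52. None of the 5 genes passed a log2 ratio of 1, the size used here to call a difference, which 6.79% of 13146 genes with a mean of at least 1 CPM passed in either direction. The median log2 ratio was -0.08 over the 5 genes and 0.07 over all genes, and *Cxcl5* and *Csf3* stood at percentiles 96.5 and 95.4 of all genes. When each cell was given equal weight, *Cxcl5* reached 1.23 and passed the threshold. The *Cxcl3* ratio changed direction with the sex marks described below, at 0.46 in cells with *Xist* UMIs alone and -1.43 in cells with Y-linked UMIs alone.

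Between tdTomato- eGFP+ and tdTomato- eGFP- cells, which share the same reference library with the comparison above, *Csf3* was higher by 0.39, *Cxcl5* by 0.36 and *Cxcl3* by 0.18, *Cxcl1* differed by -0.09 and *Cxcl2* by -0.45. Here 0 of 5 genes passed the threshold beside 5.14% of all genes. Between tdTomato+ eGFP+ and tdTomato+ eGFP- cells 0 of 5 passed beside 1.86% of all genes, with log2 ratios from -0.51 for *Cxcl3* to 0.11 for *Cxcl5*.

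The populations were made of different cells, and the ratios were therefore also read within each group. A group with *Nos2* (inducible nitric oxide synthase) and *Ereg* (the growth factor epiregulin) among its leading genes, called *Nos2/Ereg* here, made up 50.6% of tdTomato+ eGFP- and 47.6% of tdTomato+ eGFP+ collagen-expressing cells, 22.3% of tdTomato- eGFP+ and 6.86% of tdTomato- eGFP- cells. Within this group *Csf3* was 113 CPM in tdTomato+ eGFP- and 141 CPM in tdTomato- eGFP- cells, a log2 ratio of -0.33, and over the 6 groups that could be compared the ratio ran from -0.33 to 0.25. The ratio of 0.82 over all collagen-expressing cells was thus not found inside any of the groups. *Cxcl5* was higher within 5 of the 6 groups, by 0.94 in cycling-like cells and 0.58 in *Nos2/Ereg* cells, and differed by -0.18 in matrix-fibroblast-like cells. *Cxcl3* was lower in tdTomato+ eGFP- cells within all 6 groups, by -0.49 to -2.53, and in *Nos2/Ereg* cells 46.1 CPM in the tdTomato- eGFP- library stood against 19.9 CPM in the tdTomato+ eGFP- library. Between tdTomato- eGFP+ and tdTomato- eGFP- cells *Csf3* was lower within all 6 groups with a ratio, by -0.16 to -2.82, against 0.39 over all collagen-expressing cells.

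**Figure D1:**
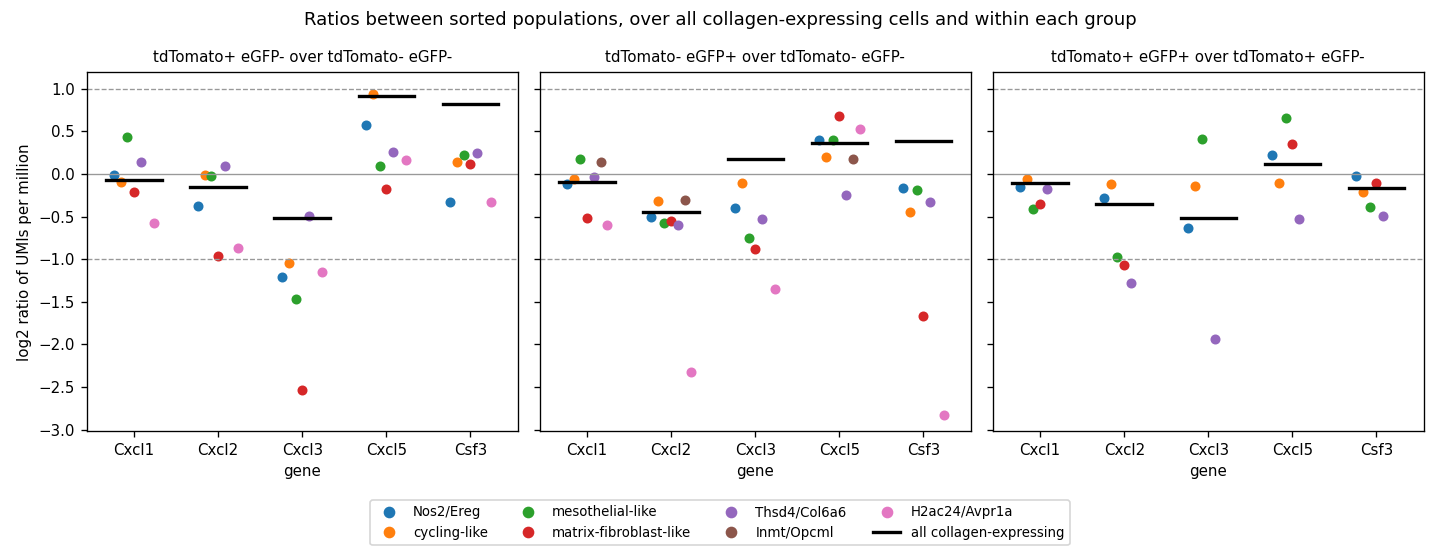
Log2 ratio of CPM between sorted populations for each gene, in 3 panels of 1 comparison each. Black bars give the ratio over all collagen-expressing cells, dots the ratio within each group that had at least 50 cells in both libraries and counts enough for a ratio, and dashed lines a log2 ratio of 1 in either direction. The *Csf3* bar of the first panel stands at 0.82, above all 6 of its dots, and all 6 dots of *Cxcl3* lie below 0. In the third panel the lowest *Cxcl3* dot, of *Thsd4/Col6a6* cells, is a bound at -1.94, since no UMI was found in the tdTomato+ eGFP+ library.

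The 7 groups of collagen-expressing cells differed most in *Csf3*, *Cxcl5* and *Cxcl3*. From markers, 3 of them were named cycling-like (4505 cells), mesothelial-like (3405) and matrix-fibroblast-like (3360), the last with the immunoglobulin gene *Ighm* among its 10 leading genes. The others are called by leading genes, *Nos2/Ereg* (4740 cells), *Thsd4/Col6a6* (2297), *Inmt/Opcml* (1850) and *H2ac24/Avpr1a* (1315), the last with the pericyte gene *Notch3* among its leading genes. Cycling was not particular to the cycling-like cells, since *H2ac24/Avpr1a* cells held 1554 CPM of the 6 cycling markers against 1635 CPM in cycling-like cells and 51.4 to 172 CPM in the other groups, and they held 23705 CPM of the 6 matrix fibroblast markers against 26960 CPM in matrix-fibroblast-like cells. The 8 mesothelial markers were not particular to mesothelial-like cells either. They summed to 2629 CPM there, 1654 CPM in *Thsd4/Col6a6* and 1294 CPM in cycling-like cells, against 163 to 433 CPM in the other groups. Each group was compared with all other collagen-expressing cells, and since the groups were formed on genes of the same cells, these ratios describe the groups.

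*Nos2/Ereg* cells had the highest *Csf3*, at 120 CPM (117 to 123) against 40.2 CPM in the other collagen-expressing cells, a log2 ratio of 1.58. Its level inside the group was 141, 126, 113 and 110 CPM in the tdTomato- eGFP-, tdTomato- eGFP+, tdTomato+ eGFP- and tdTomato+ eGFP+ libraries, and the ratio passed 1 in 4 of 4 libraries (1.15 to 1.94). *Csf3* was found in 35.3% of these cells, and in 9.97% after thinning. *Cxcl5*, which binds CXCR2 as the other 3 chemokines do, reached 887 CPM (878 to 895) against 415 CPM, a ratio of 1.09. It stood at 637, 837, 950 and 1111 CPM in the same order of libraries, with a ratio past 1 in 2 of them (0.78 to 1.05), and was found in 36.6% of thinned cells. The other members differed less, *Cxcl3* by 0.44, *Cxcl2* by 0.26 and *Cxcl1* by -0.08, so 2 of 5 genes were called higher, beside 2.26% of 13053 genes. The call of *Cxcl5* was lost with 40 components (0.95), without doublets (0.98) and with at least 9 groups (0.71), while that of *Csf3* was kept. The median ratio was 0.44 over the 5 genes and -0.13 over all genes. With at least 9 groups requested, these cells formed 2 clusters: one of 2467 cells had 138 CPM of *Csf3*, 814 CPM of *Cxcl5* and 36.0 CPM of *Cxcl3*, the other, of 2246 cells, 104, 949 and 17.2 CPM.

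*Nos2/Ereg* cells also carried more of other inflammatory genes. Beside the counts that follow, 2.26% of 13053 genes were called higher in this comparison and 7.78% lower, with a median log2 ratio of -0.13. Of 12 genes commonly induced together with these chemokines 11 passed the filter on low values and 4 were past the threshold, *Ptgs2* (cyclooxygenase-2, 300 CPM against 84.4), *Lcn2* (the iron-binding lipocalin-2, 952 against 290), *Lif* (a cytokine of the interleukin-6 family, 31.0 against 11.8) and *Saa3* (a serum amyloid A, 19428 against 7392), with a median log2 ratio of 0.56 over the list. Among 14 receptors and adaptors of the inducing cytokines 1 was called, *Il1r1*, the receptor of interleukin-1, at 640 CPM against 300 CPM. *Il1a*, an interleukin-1 itself, was at 3.93 CPM against 0.704 CPM. None of 8 NF-kB and C/EBP factors, 8 feedback and mRNA decay genes or 14 genes of the response to tissue dissociation passed the threshold. Of 12 hypoxia genes, 5 were higher (*Slc2a1*, *Vegfa*, *Bnip3*, *Ndrg1* and *Car9*), with a list median of 0.87, and the summed hypoxia list was 4345 CPM in the 2467-cell cluster and 2450 CPM in the 2246-cell cluster. The part of this list in the levels of *Csf3* and *Cxcl5* was not tested.

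Matrix-fibroblast-like cells had little *Cxcl3* and *Csf3*. *Cxcl3* was at 7.48 CPM (6.48 to 8.59) against 24.5 CPM, a log2 ratio of -1.71, and *Csf3* at 22.4 CPM (20.6 to 24.2) against 67.0 CPM, a ratio of -1.58. Both ratios were below -1 in 4 of 4 libraries, but that of *Cxcl3* in tdTomato+ eGFP+ cells, at -1.02, is a bound because no UMI was found among 54 cells. The counting interval there reaches -0.70, so that library leaves the *Cxcl3* call undecided. After thinning, *Cxcl3* was found in 0.510% of these cells, below its 0.976% in melanoma-like cells. The pooled levels of the other genes, *Cxcl1* at 1653 CPM, *Cxcl2* at 276 CPM and *Cxcl5* at 529 CPM, came mostly from the tdTomato- eGFP- library with 2640 of the cells, and the libraries differed in direction. The *Cxcl2* ratio was 0.42 and 0.20 in the tdTomato- libraries and -0.55 and -1.28 in the tdTomato+ libraries, the last from 75.8 against 184 CPM, and it was -0.23 without the tdTomato- eGFP- library. The *Cxcl5* ratio was 0.51 and 0.72 in the former and -0.79 and -0.53 in the latter, and that of *Cxcl1* ran from -0.22 to 0.31. Thus 2 of 5 genes were called lower, beside 9.57% of 13193 genes. *Il6*, which codes for interleukin-6 and is induced by the same signals, was at 279 CPM against 132 CPM.

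*H2ac24/Avpr1a* cells resembled them in these 2 genes. *Csf3* was at 14.9 CPM (12.99 to 17.0), a ratio of -2.12, and *Cxcl3* at 9.05 CPM (7.59 to 10.7), a ratio of -1.36, both below -1 in 3 of 3 libraries with at least 50 cells. With 2 of 5 genes called lower, beside 7.62% of 13103 genes, *Cxcl1*, *Cxcl2* and *Cxcl5* differed by -0.11, -0.33 and -0.40. The *Cxcl3* call was lost in thinned cells, at -0.83. Of the 1315 cells, 966 came from the tdTomato- eGFP- library, and without it *Cxcl2* was also past the threshold, at -1.15. Its ratio was -0.25 in that library, -2.13 in tdTomato- eGFP+ cells, from 43.3 against 189 CPM, and -0.97 in tdTomato+ eGFP- cells. In the same order the ratio was -0.03, -0.54 and -0.55 for *Cxcl1* and -0.08, 0.10 and -0.85 for *Cxcl5*.

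*Inmt/Opcml* cells stood apart from all others. They held 6192 CPM of 6 markers of universal fibroblasts, among them *Pi16* and *Dpp4*, against 268 to 1734 CPM in the other groups. *Cxcl5* was at 36.6 CPM (30.9 to 43.0) against 546 CPM, *Csf3* at 5.26 CPM (3.26 to 8.04) against 61.8 CPM, *Cxcl3* at 4.26 CPM (2.48 to 6.82) against 22.4 CPM and *Cxcl2* at 47.9 CPM (41.3 to 55.2) against 226 CPM. Log2 ratios were -3.90, -3.55, -2.40 and -2.24, and 4 of 5 genes were called lower, beside 13.8% of 13486 genes. *Cxcl1* was at 868 CPM (839 to 897), a ratio of -0.75, and was still found in 40.1% of thinned cells. For *Cxcl3*, *Cxcl5* and *Csf3* the thinned shares, 0.126%, 2.15% and 0.189%, were at or below those in melanoma-like cells. Melanoma-like cells held collagen RNA themselves, and the 431 with under 1000 CPM of collagen markers had 0.772, 6.56 and 1.80 CPM of these genes. Whether the levels in *Inmt/Opcml* cells are background was not tested. These cells were shallow, with a median of 1743.5 UMIs, 0.302 of the median of their own libraries, and 1747 of the 1850 came from the tdTomato- eGFP- library, which held every *Cxcl3* and *Csf3* UMI of the group. They held 10795 CPM of the 14 dissociation response genes, against 6078 to 7872 CPM in the other groups, and *Cebpd*, a C/EBP factor, at 1245 CPM against 348 CPM. *Il1r1* was at 80.9 CPM against 394 CPM, and 6 of 10 co-induced genes were lower, among them *Ccl2*, a chemokine for monocytes, at 535 CPM against 3351 CPM. Of 12 hypoxia genes 10 were lower and 1 higher in *Inmt/Opcml* cells, with a list median of -1.78, beside 13.8% of all genes lower. In matrix-fibroblast-like and *H2ac24/Avpr1a* cells 4 and 5 of the 12 were lower and 0 higher, beside 9.57% and 7.62% of all genes lower. Of the *Inmt/Opcml* cells with only one kind of sex mark, 98.8% had *Xist*. The part of depth, the dissociation response, the hypoxia list and sex marks in these levels was not tested.

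No gene was called in cycling-like, mesothelial-like or *Thsd4/Col6a6* cells, beside 9.77%, 19.2% and 13.5% of all genes in these comparisons. *Thsd4/Col6a6* cells had the highest *Cxcl1*, at 1748 CPM (1728 to 1768), higher than the other cells in 4 of 4 libraries by 0.23 to 0.46, and 73.9 CPM of *Csf3*. Mesothelial-like cells had 30.4 CPM of *Cxcl3*, 49.8 CPM of *Csf3* and 312 CPM of *Cxcl5*, a ratio of -0.85 for the last, which was lower in 4 of 4 libraries. Cycling-like cells had 424 CPM of *Cxcl5* and 44.4 CPM of *Csf3*. Ordered by pooled level, *Csf3* ran from *Nos2/Ereg* through *Thsd4/Col6a6*, mesothelial-like, cycling-like, matrix-fibroblast-like and *H2ac24/Avpr1a* to *Inmt/Opcml* cells, and pooled intervals of neighbours did not overlap. By library, however, mesothelial-like (45.5 to 60.2 CPM) and cycling-like cells (35.4 to 53.4 CPM) overlapped, as did matrix-fibroblast-like and *H2ac24/Avpr1a* cells. For *Cxcl1* the pooled levels of 6 groups lay within 1352 to 1748 CPM.

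**Figure D2:**
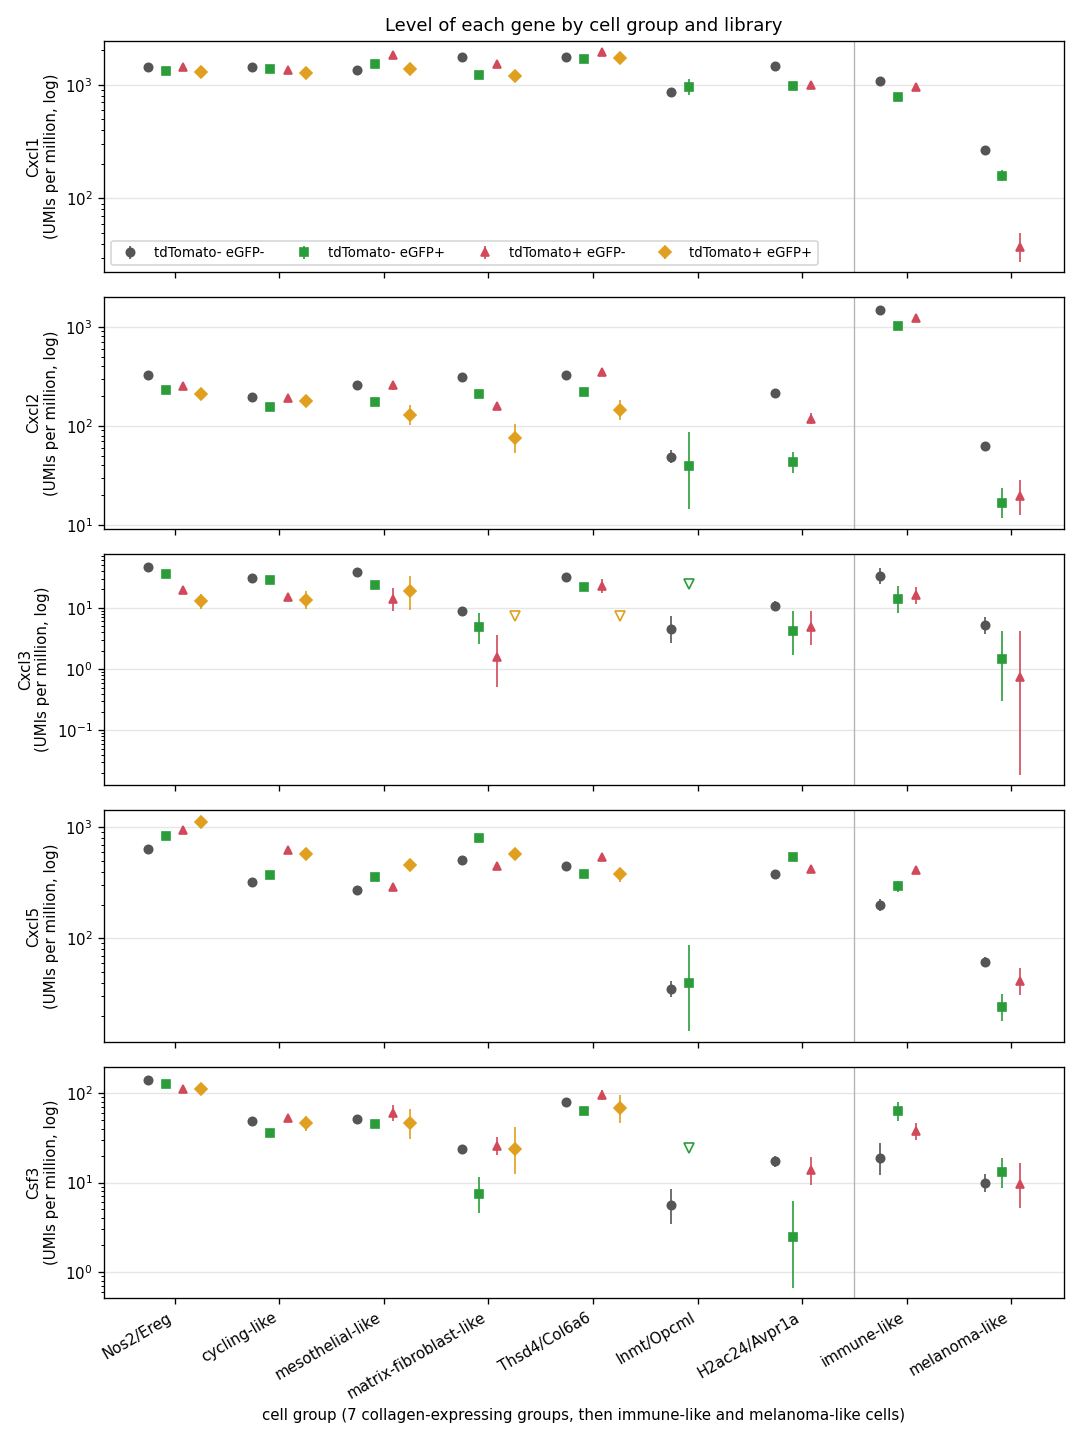
CPM of each gene (log axis, 1 panel a gene) in the 7 collagen-expressing groups, then in immune-like and melanoma-like cells. Each point is 1 library with at least 50 cells in the group, coloured by sorted population, and bars are exact Poisson 95% intervals. Open triangles mark the upper limit of that interval where no UMI was found. *Csf3* of *Nos2/Ereg* cells lies at 110 to 141 CPM in all 4 libraries, above every library of the other groups, and *Cxcl2* of immune-like cells lies above 1000 CPM.

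The second comparison set collagen-expressing cells against melanoma-like cells of the same libraries. All 5 genes were higher in collagen-expressing cells, beside 26.1% of 13319 genes called higher, and this held in 3 of 3 libraries with at least 50 melanoma-like cells, although *Cxcl3* had only 1 UMI in the melanoma-like cells of the tdTomato+ eGFP- library. *Cxcl1* was at 212 CPM (203 to 221) in melanoma-like cells against 1447 CPM, *Cxcl5* at 51.0 against 535 CPM, *Cxcl2* at 47.8 against 222 CPM, *Csf3* at 10.2 against 60.6 CPM and *Cxcl3* at 3.83 against 22.0 CPM. Log2 ratios were 2.77, 3.39, 2.21, 2.56 and 2.52, with a median of 2.56 over the 5 genes and 0.06 over all genes. By library, melanoma-like *Cxcl1* was 265 CPM in tdTomato- eGFP-, 159 CPM in tdTomato- eGFP+ and 37.5 CPM in tdTomato+ eGFP- cells, and 2 UMIs were found in 17 cells of the tdTomato+ eGFP+ library.

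Collagen RNA was found in melanoma-like cells too, and its part in the levels of the 5 genes was not tested. In the tdTomato- eGFP-, tdTomato- eGFP+ and tdTomato+ eGFP- libraries these cells held 2101, 1214 and 1320 CPM of collagen markers. Their *Cxcl1* was 265, 159 and 37.5 CPM in the same order. Melanoma-like cells held 8.56% of the collagen marker level of collagen-expressing cells, and between 9.53% (*Cxcl5*) and 21.5% (*Cxcl2*) of the level of the 5 genes. Among the 431 melanoma-like cells with under 1000 CPM of collagen markers, a limit chosen after the data had been seen, *Cxcl1* was 48.5 CPM, *Cxcl5* 6.56 CPM, *Cxcl2* 5.27 CPM, *Csf3* 1.80 CPM and *Cxcl3* 0.772 CPM, so each ratio to collagen-expressing cells was larger, from 4.84 to 6.35. *Cxcl2* and *Cxcl3* were no longer past the threshold when only *Xist*-positive cells without Y-linked UMIs were used, 45 of them melanoma-like, at 0.64 and 0.56. The 5 sex marks were scarce in melanoma-like cells, at 18.7 CPM against 205 CPM in collagen-expressing cells, so this choice kept only 45 of 622 melanoma-like cells. Whether these 45 held more RNA of other cells than the rest was not tested. Of the genes that carry the inducing signal, 7 of 8 NF-kB and C/EBP factors and 8 of 14 receptors and adaptors were higher in collagen-expressing cells, beside 26.1% of 13319 genes. So were 10 of 10 co-induced genes. The pattern was not particular to these lists, since 6 of 8 feedback and mRNA decay genes and 12 of 14 dissociation response genes were higher as well. Of 12 hypoxia genes 6 were higher and 2 lower.

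Against immune-like cells the genes parted. *Cxcl2* was higher in immune-like cells, at 1324 CPM (1293 to 1356) against 222 CPM (220 to 224), a 5.97-fold difference and a log2 ratio of -2.58 for collagen-expressing over immune-like cells. It stood at 1488, 1022 and 1208 CPM in the tdTomato- eGFP-, tdTomato- eGFP+ and tdTomato+ eGFP- libraries and at 2482 CPM in 40 cells of the tdTomato+ eGFP+ library, and the ratio was -2.56 to -2.41 in the 3 libraries with at least 50 immune-like cells. It was found in 44.9% of thinned immune-like cells. *Cxcl1*, *Cxcl5* and *Csf3* were higher in collagen-expressing cells by 0.63, 0.80 and 0.71, and *Cxcl3* differed by -0.41, which became 0.14 without the tdTomato+ eGFP+ library, where 54 of the 155 *Cxcl3* UMIs of immune-like cells were found. When each cell was given equal weight *Cxcl5* (1.18), *Csf3* (1.22) and *Cxcl3* (-1.08) were past the threshold too. One of 5 genes was called, lower in collagen-expressing cells, beside 10.1% of 13627 genes, and the median ratio was 0.63 over the 5 genes and 0.10 over all genes.

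Immune-like cells held 69.0% of the collagen marker level of collagen-expressing cells, and 64.8% of its level for *Cxcl1*, 57.6% for *Cxcl5* and 60.9% for *Csf3*. These shares were less alike by library, with 46.7% of the collagen level and 72.1% of *Cxcl1* in tdTomato- eGFP-, 67.9% of the collagen level and 104% of *Csf3* in tdTomato- eGFP+, and 44.2% of the collagen level and 5.10% of *Cxcl5* in tdTomato+ eGFP+ cells. Among the 225 immune-like cells with under 1000 CPM of collagen markers, *Cxcl5* was at 14.4 CPM (7.68 to 24.7), *Csf3* at 3.33 CPM (0.687 to 9.73, from 3 UMIs), *Cxcl1* at 353 CPM (315 to 394), *Cxcl3* at 44.4 CPM (31.7 to 60.5) and *Cxcl2* at 2746 CPM (2639 to 2856). Log2 ratios of collagen-expressing over these cells were 5.21 for *Cxcl5*, 4.19 for *Csf3*, 2.04 for *Cxcl1*, -1.01 for *Cxcl3* and -3.63 for *Cxcl2*. The *Cxcl3* ratio rested on 40 UMIs in 9 of the 225 immune-like cells, with 17 of the UMIs in 1 cell, which its counting interval does not cover. *Cxcl5* and *Csf3* were thus scarce in immune-like cells with little collagen RNA, and *Cxcl2* was higher in them. The 155 of these cells with at least 3 UMIs of macrophage markers and more of them than of B cell markers had 3691 CPM of *Cxcl2* (3542 to 3844), found in 67.7% of them, while the 35 with B cell markers in excess had 1 UMI.

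**Figure D3:**
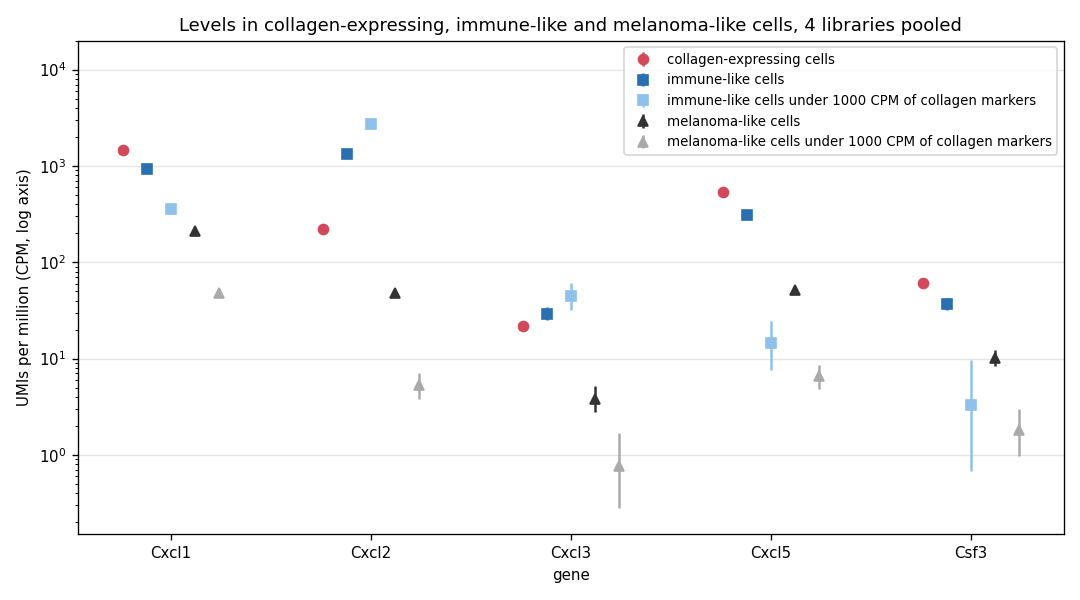
CPM of each gene (log axis) in collagen-expressing, immune-like and melanoma-like cells with the 4 libraries pooled, and in the immune-like and melanoma-like cells under 1000 CPM of collagen markers. Bars are exact Poisson 95% intervals. *Cxcl2* lies at 2746 CPM in low-collagen immune-like cells and at 222 CPM in collagen-expressing cells, and *Cxcl5* and *Csf3* lie the other way round.

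The partners of these genes were looked up in the same classes. Receptors were scarce: *Cxcr2* had 8 UMIs in all collagen-expressing cells and 1 in immune-like cells, *Cxcr1* had none in either, and *Csf3r* had 14 UMIs in collagen-expressing cells and 44 in immune-like cells, or 8.33 CPM. The decoy receptor *Ackr1*, which binds such chemokines without signalling, was at 19.0 CPM (15.0 to 23.8) in *Inmt/Opcml* cells against 1.51 CPM in the other collagen-expressing cells. *Ackr1* is also a gene of venular endothelium, and the 6 endothelial markers were highest in the same cells, at 124 CPM against 16.0 to 58.8 CPM in the other groups. Of this sum 112 CPM were *Tek*, while *Pecam1* (CD31) had 10 UMIs and *Cdh5* 1, and the part of endothelial RNA in the level of *Ackr1* was not tested. Neutrophil RNA was scarce in these cells, which had been sorted against CD45: the 9 neutrophil markers summed to 13.3 CPM in immune-like and 1.504 CPM in collagen-expressing cells, *S100a9* and *Ly6g* had no UMI in immune-like cells, and *S100a8* had 21. The other chemokines of the family in this gene cluster, *Ppbp* and *Cxcl15*, had 8 and 0 UMIs in collagen-expressing cells.

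The inducing cytokines lay with the immune-like cells. The 8 genes of the list summed to 188 CPM there, against 4.13 CPM in collagen-expressing cells. In immune-like cells *Il1b* was at 78.2 CPM, *Tnf* at 72.9 CPM, *Il1a* at 20.1 CPM, *Osm* at 11.6 CPM and *Ltb* at 4.74 CPM. These 5 passed the filter on low values and the threshold, beside 10.1% of 13627 genes called lower in collagen-expressing cells. That filter takes the mean of both classes, so a gene can pass it through a high immune-like level alone. Their count is therefore no separate result. *Il17a* had no UMI in any class, and *Il17f* had 18 in collagen-expressing cells. In the 155 low-collagen cells with macrophage markers *Il1b* was at 231 CPM, *Tnf* at 202 CPM and *Il1a* at 76.5 CPM. *Il1r1*, at 387 CPM over all collagen-expressing cells, was the only receptor or adaptor called in *Nos2/Ereg* cells, as above.

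The genes were also read within single cells. In thinned collagen-expressing cells 35.5% had none of the 5 genes, 40.0% had 1, 24.6% had at least 2, and 4 of 20882 cells had all 5. At least 2 were found in 35.6% of *Nos2/Ereg* cells, 19.3% to 27.0% of the other groups except *Inmt/Opcml*, 3.47% of *Inmt/Opcml* cells, 26.4% of immune-like and 2.28% of melanoma-like cells. Pairs were found together more often than the product of their shares within each library gives. *Cxcl1* and *Cxcl2* were both found in 1728 cells where 1213 were expected, a ratio of 1.42 (1.36 to 1.49). The ratio was 1.58 (1.43 to 1.74) for *Cxcl5* with *Csf3*, 1.74 (1.501 to 2.001) for *Cxcl2* with *Csf3* and 1.80 (1.51 to 2.14) for *Cxcl3* with *Cxcl5*. For *Cxcl2* with *Cxcl3* it was 2.16 (1.70 to 2.69), 77 cells where 35.7 were expected, and this pair carries the shared run of bases described above. The counting interval lay above 1 for 9 of 10 pairs and reached 0.988 for *Cxcl3* with *Csf3*, which rested on 25 cells. With the expectation taken within both library and group the ratios were 1.20 to 2.07, and the same pair was the only one whose interval reached 1.

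**Figure D4:**
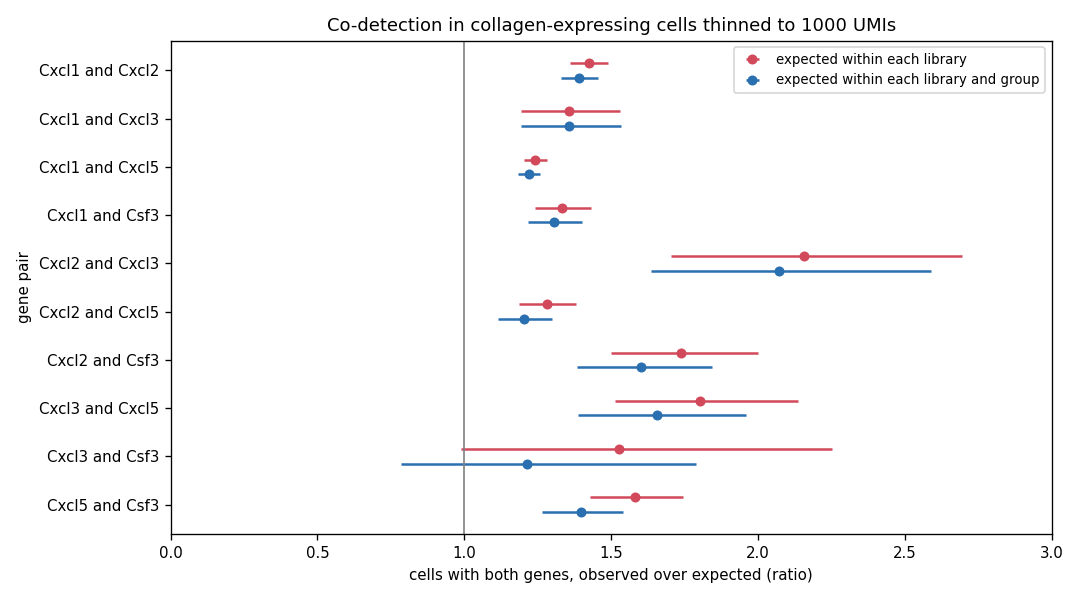
Cells with both genes of a pair over the number expected from the single shares, for 10 pairs in thinned collagen-expressing cells, with the expectation taken within library or within library and group. Bars are counting intervals from the number of cells with both genes. Ratios within library run from 1.24 for *Cxcl1* with *Cxcl5* to 2.16 for *Cxcl2* with *Cxcl3*.

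UMIs of some of these genes sat in few cells. The 209 collagen-expressing cells (1%) with most thinned UMIs of *Cxcl2* held 29.3% of its UMIs, up to 22 in a cell, and its variance over cells was 3.44 times its mean. For *Cxcl1* the top 1% held 7.84% of UMIs with a variance 2.93 times the mean, and for *Cxcl5* 16.0% and 2.77 times. These figures are read per gene, because a gene with few UMIs has a high share in its top cells at any spread.

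Cells with female and male marks were mixed in unequal shares, and *Cxcl5* differed between them. Cells with *Xist* UMIs and no Y-linked UMI (*Xist*-only) were 56.3% of collagen-expressing cells with only one kind of mark, 76.5% in *Nos2/Ereg*, 15.5% in *Thsd4/Col6a6* and 98.8% in *Inmt/Opcml* cells. *Cxcl5* was at 785 CPM (778 to 791) in 6307 *Xist*-only and 356 CPM (351 to 361) in 4903 Y-only cells, a log2 ratio of 1.14, past the threshold for 1 of 5 genes beside 2.27% of 13242 genes called higher. The ratio was 0.80, 1.26, 0.98 and 1.99 in the tdTomato- eGFP-, tdTomato- eGFP+, tdTomato+ eGFP- and tdTomato+ eGFP+ libraries. It was positive in 14 of 17 combinations of group and library, at 1048 against 471 CPM in *Nos2/Ereg* and 897 against 267 CPM in matrix-fibroblast-like cells, but 238 against 361 CPM in mesothelial-like cells. *Csf3* differed by 0.48 over all collagen-expressing cells, with opposite directions in different groups. It was 28.1 against 8.19 CPM in matrix-fibroblast-like cells, a ratio of 1.78, and 17.1 against 6.64 CPM in *H2ac24/Avpr1a* cells (1.36), but 22.2 against 59.4 CPM in mesothelial-like cells (-1.42) and 44.0 against 73.7 CPM in *Thsd4/Col6a6* cells (-0.74), and 114 against 107 CPM in *Nos2/Ereg* cells. *Cxcl1* differed by -0.25, *Cxcl3* by -0.41 and *Cxcl2* by 0.01. Within *Xist*-only cells the *Cxcl5* ratio of *Nos2/Ereg* over other cells was 0.79 and within Y-only cells 0.48, both under the threshold. Its ratio of tdTomato+ eGFP- over tdTomato- eGFP- cells was 0.74 and 0.56, and *Xist*-only cells made up 66.1% of marked cells in the first and 57.0% in the second library. In *Thsd4/Col6a6* cells, with the highest *Cxcl1*, this gene was at 1079 CPM in *Xist*-only and 1873 CPM in Y-only cells. How many mice carried each mark is not given in the sources used here, so sex and animal cannot be told apart.

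**Figure D5:**
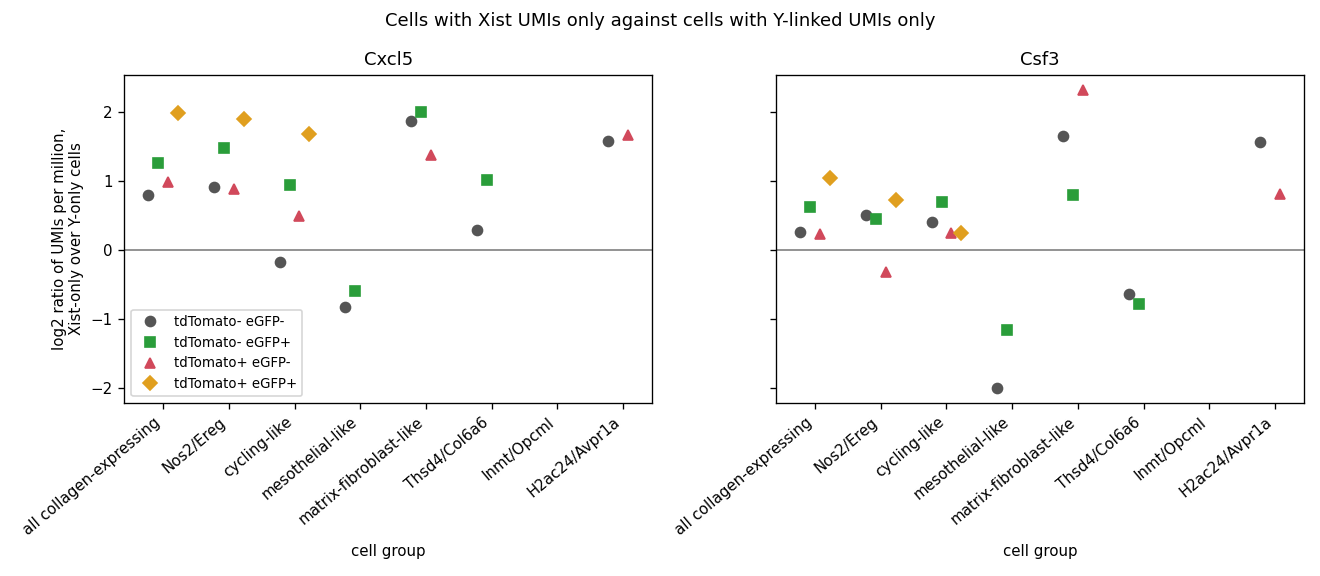
Log2 ratio of CPM in *Xist*-only over Y-only cells for *Cxcl5* and *Csf3*, over all collagen-expressing cells and in each group, with 1 point a library that had enough cells of both marks. No group point is given for *Inmt/Opcml* cells, which had 9 Y-only cells. *Cxcl5* lies above 0 in all 4 libraries over all collagen-expressing cells, and below 0 in mesothelial-like cells.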

How the data were processed

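Single cells from 4 sorted populations were measured by 3′ droplet sequencing, 1 library per population. Per the file headers the authors made the deposited counts (UMIs per gene and barcode, not normalized) with Cell Ranger 8.0.0, while the submitters' processing notes list Cell Ranger 10.0.0, STAR, Seurat 5.0 and the GRCm39 build. Coordinates and promoter sequences of the RefSeq tables are on another build, GRCm38.p6, and were used only by gene name.

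The filters of the study were applied (500 to 6000 genes, at most 10% mitochondrial counts), and cells were clustered in Seurat with 2000 variable genes, 25 components and 20 neighbours. A list of 124 genes was kept out of them, among these the 5 genes described and all other chemokines, which left 1946 variable genes in the first and 1943 in the second clustering. The cell annotation of the authors was not used here, so names come from rebuilt clusters and may differ from theirs. Doublets were kept in the main values and, in an alternative, the 1543 barcodes with the highest Scrublet scores (0.8% per 1000 barcodes) were removed.

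CPM were computed from UMIs summed over cells and divided by the total UMIs of the same cells. A log2 ratio past 1 was called, among genes with a mean of at least 1 CPM, and a side with 0 UMIs was set to 3 UMIs, so that its ratio is a bound, while ratios on 1 to 3 UMIs were left as counted. For shares and co-detection cells were thinned to 1000 UMIs. No test was run, because 1 library per population leaves no spread between samples, and libraries are not replicates of each other. The ratio and interval steps were tested on simulated data for the comparison of tdTomato+ eGFP- with tdTomato- eGFP- cells, where 200 of 200 changed genes among 13146 were recovered. These genes were set to a log2 ratio of 2, so their recovery says nothing on ratios near the threshold of 1. Genes named were the 5 members, all genes of fixed lists (receptors, inducing cytokines, their receptors, transcription factors, feedback genes, co-induced, dissociation and hypoxia genes, sex marks) and those most like a member over groups, of which the one for *Cxcl5* is not reported here. The members and lists were chosen with earlier results of these data known. Alternatives were the mitochondrial limit, doublets, components, group number, averaging, depth, sex marks, threshold, filter and leaving out each library. Python 3.11.15, scipy 1.17.1 and scanpy 1.11.5 were used.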

Additional observations from a re-analysis of the deposited data

How the results depend on the processing

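Counts of called genes depended on how cells were weighted more than on how they were clustered. Between sorted populations 0 of 15 values passed a log2 ratio of 1, 1 with the mean over cells, 1 in thinned cells and 1 in Y-only cells, and 8 passed 0.25, beside 36.4% to 51.8% of all genes. The first 2 were *Cxcl5* in tdTomato+ eGFP- over tdTomato- eGFP- cells (1.23 and 1.13, against 0.92), the last *Cxcl3* (-1.43). Against melanoma-like cells 5 of 5 were called, and 3 in *Xist*-only cells, which kept 45 of 622 melanoma-like cells. Against immune-like cells 1 was called, 4 with the mean over cells, 4 in thinned cells, 5 at a threshold of 0.25 (61.0% of all genes), and 5 for immune-like cells under 1000 CPM of collagen markers, an alternative chosen after seeing the data. The *Cxcl3* call of that alternative rested on 40 UMIs in 9 cells, 17 of the UMIs in 1 cell. Leaving out 1 library gave 1 to 2, with 2 when the tdTomato- eGFP+ library (*Csf3* 1.02) or the tdTomato+ eGFP- library (*Cxcl5* 1.09) was left out. Over the 7 groups 10 of 35 values were called and 27 at 0.25, which 51.2% to 74.9% of all genes passed. The cause of these shifts was not tested, except that a lower threshold lets more values pass by construction.

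Over its main value and 11 alternatives *Csf3* of *Nos2/Ereg* cells stayed past 1 (1.30 to 1.74), while *Cxcl5* did so in 7 of 12 (0.48 to 1.31), falling below with 40 components (0.95), without doublets (0.98), with at least 9 groups (0.71), and in *Xist*-only (0.79) and Y-only cells (0.48). Without the tdTomato- eGFP- library *Inmt/Opcml* cells had no *Cxcl3* UMI, and the ratio of -0.74 against 3 UMIs is only a bound that leaves the call undecided, while the melanoma ratios of *Cxcl2* and *Cxcl3* were 3.61 and 4.29, the latter from 4 UMIs in melanoma-like cells. *Cxcl3* of *H2ac24/Avpr1a* cells was -0.83 in thinned cells. With a mitochondrial limit of 5% all 60 values kept their sign and their side of the threshold. For Y-only cells no count over groups could be given, since *Inmt/Opcml* had 9 such cells. Without the filter on low values the background of called genes was 14.8% for tdTomato+ eGFP- over tdTomato- eGFP- cells and 17.0% to 25.9% for the groups. *Cxcl3* and *Csf3* rested on few UMIs in small units, and depth limits their order there. No paired analysis was possible because each population has 1 library and no test was run.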

Other observations

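*Csf3* was higher in cells with a *Cxcl13* UMI than in cells without one, in 4 of 4 libraries, when cells were thinned to 1000 UMIs. It was 126 against 38.3 CPM in tdTomato- eGFP-, 132 against 60.2 CPM in tdTomato- eGFP+, 120 against 58.8 CPM in tdTomato+ eGFP- and 181 against 61.7 CPM in tdTomato+ eGFP+ cells. Within *Nos2/Ereg* cells the log2 ratio was -0.08, 0.77, 0.73 and 1.31 in the same order. For *Cxcl3* the log2 ratio was -0.19, -1.12 and -0.26 in the first 3 libraries, with overlapping counting intervals in each, and in the tdTomato+ eGFP+ library 1 UMI in 204 *Cxcl13*-positive cells was too few to give a direction. *Cxcl1* and *Cxcl5* were higher by 0.31 to 0.49 and 0.18 to 0.44. *Cxcl2* had no single direction, at 0.68, -0.19, 0.24 and 0.23 in the order of libraries given for *Csf3*. Detection in the same cell is a description here, and none of these differences was tested.

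Over 25 sums by group and library, and among 8074 genes, the genes most like 4 of the members by Pearson's r of log2(CPM + 1) were *Slfn2* for *Csf3*, at 0.94, followed by *Fam110c* (0.91) and *Cd14*, the co-receptor for bacterial lipopolysaccharide (0.90), *Aqp3* for *Cxcl3* (0.88), the chemokine gene *Ccl5* for *Cxcl2* (0.83) and *Cyp51*, a sterol synthesis enzyme, for *Cxcl1* (0.80). *Ltbp4*, which codes for a matrix protein that binds latent TGF-beta, ran opposite to *Cxcl5*, at -0.95. The sums share libraries and depth, and these values are descriptions.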
